A study of Mus musculus with 8 samples.

Results

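The 10 genes described here encode core parts of the desmosome: the plaque proteins Dsp, Jup, Pkp1, Pkp2 and Pkp3, and the cadherins Dsg1a, Dsg2, Dsg3, Dsc2 and Dsc3. They were chosen by function from the 26180 mouse genes that have a curated RefSeq transcript, and their peaks were read at the promoter, over the gene body and within 20 kb of the gene. The promoter window began 1 kb before each transcription start site (TSS) and ended 100 bp after it, and a peak counted when it overlapped the window by at least 1 bp. The tissue was the total epidermis of newborn (P0.5) wild-type mice, lifted from back skin with dispase and dissociated with trypsin without a sort for any cell type. MOF was mapped by ChIPseq, which recovers sheared, fixed chromatin with an antibody, and Rfx2, H3K4me3 and H3K27Ac by Cut&Run, which releases fragments from permeabilized cells with a nuclease tethered to the antibody. The 4 peak lists analysed held 1 library each, so no value below carries a replicate error and no test across replicates was possible.

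Desmosomes rivet neighbouring keratinocytes together. The extracellular parts of desmogleins (Dsg) and desmocollins (Dsc) bind across the gap between cells, plakoglobin (Jup) and the plakophilins (Pkp) gather their tails into a plaque, and desmoplakin (Dsp) ties that plaque to keratin filaments. MOF (also called KAT8) is the acetyltransferase of lysine 16 of histone H4, and Rfx2 is a transcription factor best known for ciliary genes. H3K4me3 is a mark of active promoters, while H3K27Ac is found at enhancers as well.

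The promoters of 2 plaque genes are shown because the lists differed there: Jup had H3K4me3 and MOF, and Dsp had H3K4me3 and H3K27Ac. Each run gives the 250 bases that end just before the first TSS, 5′ to 3′ on the gene's strand, from GRCm38.p6 (mm10), with CpG dinucleotides in capitals. Jup lies at chr11:100397791-100398040 on the minus strand and Dsp at chr13:38151044-38151293 on the plus strand. The stretch held 13 CpGs at Jup and 22 at Dsp.
Jup: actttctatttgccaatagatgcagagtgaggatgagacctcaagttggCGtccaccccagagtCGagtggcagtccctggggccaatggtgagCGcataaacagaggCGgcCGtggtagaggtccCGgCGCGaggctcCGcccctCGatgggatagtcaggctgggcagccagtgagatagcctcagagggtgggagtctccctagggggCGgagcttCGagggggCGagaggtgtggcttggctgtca
Dsp: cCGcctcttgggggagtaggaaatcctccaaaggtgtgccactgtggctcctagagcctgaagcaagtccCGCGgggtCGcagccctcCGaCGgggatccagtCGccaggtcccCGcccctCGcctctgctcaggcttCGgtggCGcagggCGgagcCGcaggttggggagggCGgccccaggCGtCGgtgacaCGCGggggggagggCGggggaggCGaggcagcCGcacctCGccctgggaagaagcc

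The MOF list held 17546 peaks, the H3K4me3 list 27039, the H3K27Ac list 30736 and the Rfx2 list 337. The lists gave no read counts, and the read totals that the study states for each library were not used here, so values were not set against depth. H3K4me3, H3K27Ac and Rfx2 peaks carried the fold enrichment over local background from the authors' peak caller, whereas MOF peaks carried a score of unstated scale, and heights were not compared between lists. Of 8 keratinocyte marker genes, 6 had H3K4me3 at the promoter (Krt5, Krt14, Krt15, Trp63, Sfn and Perp), and Krt1 and Krt10 had it within the gene but not at the promoter. The mark was also present at 3 of 5 melanocyte markers (Mitf, Pmel and Mlana), 3 of 5 fibroblast markers (Col1a2, Dcn and Pdgfra) and 1 of 3 endothelial markers (Kdr), and at 0 of 4 immune and 0 of 4 muscle markers. The share of all genes was 54%, near the melanocyte and fibroblast counts. Promoter H3K27Ac was at 4 keratinocyte (Krt14, Krt15, Sfn and Perp), 2 melanocyte (Mitf and Pmel) and 1 fibroblast marker (Dcn). It was at 0 endothelial, immune and muscle markers, against 44.1% of all genes. Peaks in a mixed tissue do not say which cells carry them, and the part of the other cell types in the peaks of the desmosome genes was not tested.

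H3K4me3 was present at the promoter of 10 of 10 desmosome genes (exact 95% interval 69.2 to 100%, counting error over genes only), against 54% of all genes. H3K27Ac was present at 7 of 10 promoters (34.8 to 93.3%), against 44.1% of all genes. The peaks at these 7 were low, from 2.67-fold at Pkp1 to 6.02-fold at Dsc2. Their median was 4.7-fold, against 6.72-fold over all genes with H3K27Ac at the promoter. MOF was present at 2 of 10 (2.52 to 55.6%), those of Jup and Dsc3, against 23.7% of all genes, and Rfx2 at 0 of 10 (up to 30.8%), against 1.21%. These counts rest on an overlap of 1 bp: with the centre of the peak required to lie in the promoter, H3K4me3 counted at 1 of 10, below the 25.5% of all genes, H3K27Ac at 4 (26.2%) and MOF at 1 (14.7%). With a promoter of 2.5 kb either side, MOF counted at 4 (27.8%), and with the stronger 50% of its peaks H3K27Ac counted at 4 (36.7%). Among the 14132 genes with H3K4me3 at the promoter, 79.8% also had H3K27Ac, 42% had MOF and 2.24% had Rfx2 there. The H3K27Ac and MOF intervals of the 10 genes hold these shares, so a difference from other H3K4me3 genes was not detectable with 10 genes. At background rates this low, 0 of 10 for Rfx2 was not distinguishable from other genes either.

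**Figure D1:**
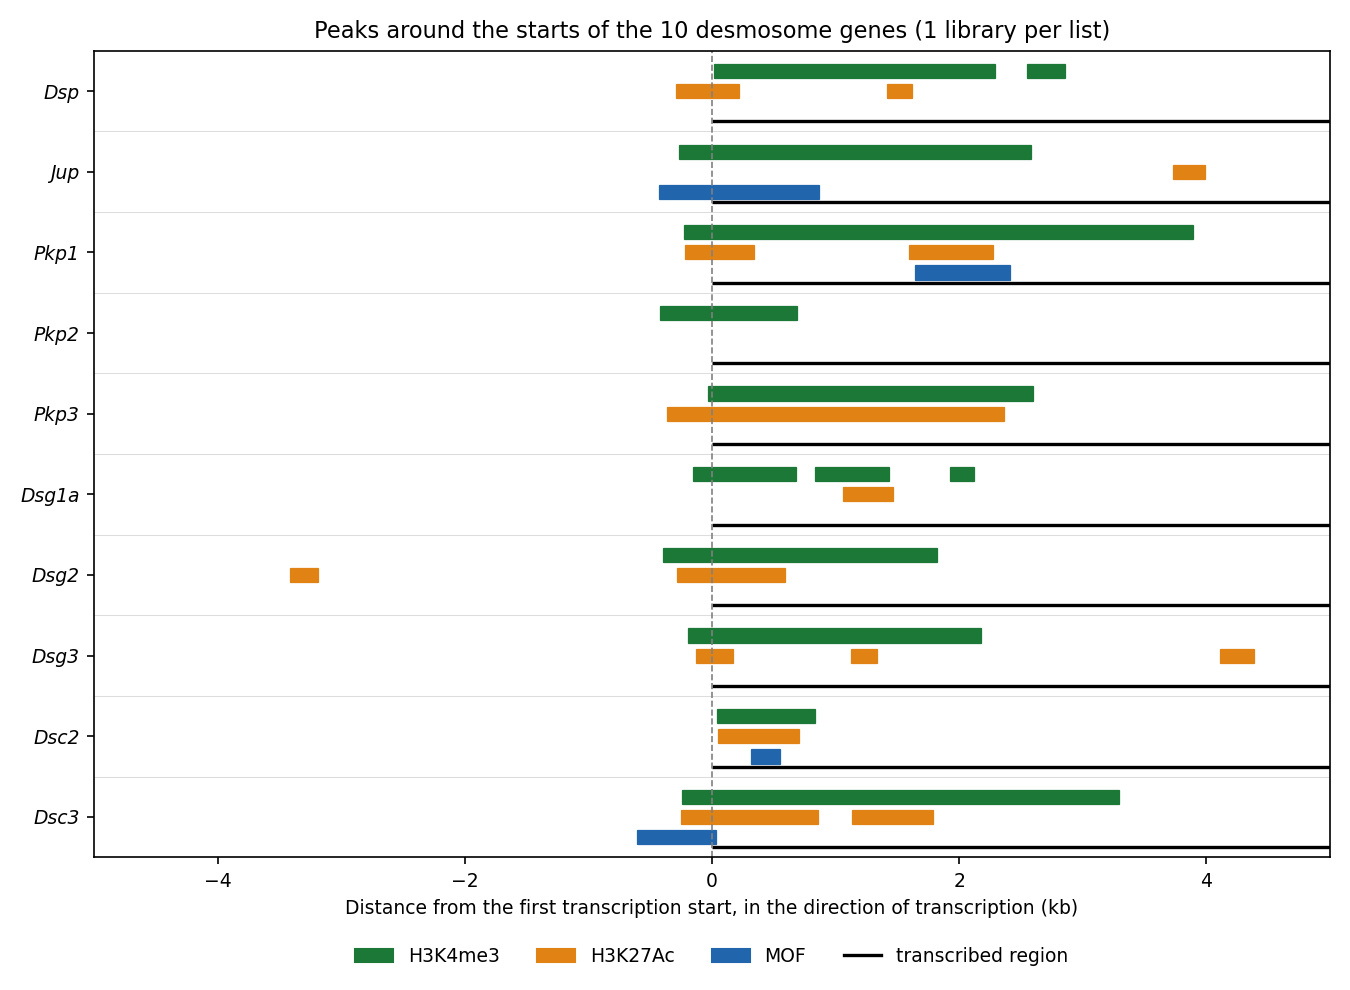
Peaks of H3K4me3, H3K27Ac and MOF (coloured bars, from the first to the last base of each peak) within 5 kb of the first transcription start of each desmosome gene, by distance in kb along the direction of transcription. The black line is the transcribed region. H3K4me3 lies at or just after the start of each gene and runs downstream, over 2579 bp at Jup and 3893 bp at Pkp1, and MOF overlaps the promoter at Jup and Dsc3.

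Desmoplakin is the plaque protein that anchors keratin filaments. The Dsp promoter had a H3K4me3 peak 2276 bp wide with a fold enrichment of 4.56, which began 14 bp downstream of the TSS. It therefore counted at the promoter only through the 100 bp that the window extends past the start. A H3K27Ac peak of 510 bp (fold enrichment 2.85) spanned the TSS itself. No MOF peak lay at the Dsp promoter.

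Away from its promoter, Dsp had 3 MOF peaks. The peak upstream was 1652 bp wide (score 381) and centred 6.96 kb from the TSS, where it overlapped 3 H3K27Ac peaks and a H3K4me3 peak that at 13.2-fold was taller than the one at the promoter. The others lay inside the gene, 1 in an intron 17.2 kb from the TSS (252 bp, score 648) and 1 in an exon 41.1 kb from it (2090 bp, score 834). Neither of the peaks inside the gene overlapped H3K4me3 or H3K27Ac.

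Of the 3 H3K27Ac peaks in that upstream region, the tallest (fold enrichment 4.93) also overlapped H3K4me3 and MOF. Its sequence is shown because no other H3K27Ac peak outside promoters near these genes overlapped both and held a match to TGANTCA. That pattern is only a loose form of the AP-1 site, because its middle base is free. The match here, TGATTCA, has T in the middle. The run below is the 300 bases around the peak's summit on the plus strand, chr13:38145189-38145488 (GRCm38.p6), with the match in capitals. The run, and so the match, lies just past the end of the MOF peak, which overlaps the other side of the same H3K27Ac peak.
Dsp upstream: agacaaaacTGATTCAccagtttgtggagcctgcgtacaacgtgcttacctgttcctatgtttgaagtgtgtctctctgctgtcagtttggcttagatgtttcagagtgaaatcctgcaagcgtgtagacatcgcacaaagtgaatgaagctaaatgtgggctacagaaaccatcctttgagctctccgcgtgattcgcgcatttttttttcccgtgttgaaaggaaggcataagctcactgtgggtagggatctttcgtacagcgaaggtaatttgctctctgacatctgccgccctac

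Plakoglobin (Jup) is an armadillo protein of both desmosomes and adherens junctions. Its promoter had H3K4me3 over 2849 bp at a fold enrichment of 3.65, and it was 1 of the 3 members, with Pkp2 and Dsg1a, that had no H3K27Ac peak at the promoter. A MOF peak of 1291 bp (score 634) covered 426 bp upstream of the TSS and 865 bp downstream. The H3K4me3 and MOF peaks also overlapped the promoter of Gm12348, an annotated gene that starts beside Jup, so they cannot be assigned to Jup alone. The nearest H3K27Ac peak was in an intron, 3.73 kb from the TSS, and a second MOF peak lay in an exon 23.7 kb from it (242 bp, score 802).

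Pkp1 is the plakophilin of stratified epithelia and of suprabasal epidermis in particular. The peak over its promoter was 4116 bp wide and ranked 2 by width among the 14132 genes with H3K4me3 at the promoter, and its fold enrichment of 2.72 stood at percentile 0.715 of the same genes. Pkp1 had 14 H3K27Ac peaks within 20 kb, more than any other member, 8 of them within the gene outside the promoter. A MOF peak of 770 bp (score 598) lay 1.64 kb downstream of the TSS, under the H3K4me3 peak and over a H3K27Ac peak. Further MOF peaks lay in an intron 16.2 kb from the TSS (score 890) and downstream of the gene (score 567).

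Pkp2 is the plakophilin of heart and simple epithelia. It had the plainest profile of the plaque genes, with a H3K4me3 peak of 1108 bp (fold enrichment 8.82) centred 132 bp past the TSS. It had no H3K27Ac at the promoter, 1 H3K27Ac peak in an intron 48.5 kb from the TSS, and no MOF peak within 20 kb. The nearest MOF peak was 66.6 kb away.

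Pkp3, which most epithelia express, had H3K4me3 over 2633 bp (fold enrichment 4.48) and H3K27Ac over 2730 bp (4.7) at the promoter. Among the members this was the only H3K27Ac promoter peak of 2 kb or wider, a width reached at 1.29% of all promoters with H3K27Ac. Pkp3 has a second TSS within the gene, and both peaks ran over it. The nearest MOF peak was 44.6 kb away.

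Desmogleins carry much of the adhesion, and Dsg1 and Dsg3 are the antigens of the pemphigus diseases. Dsg1a, a copy of the desmoglein 1 gene that the mouse has in triplicate, had 3 separate H3K4me3 peaks over its first 2123 bases, of 840, 596 and 200 bp, and a H3K27Ac peak of 407 bp (fold enrichment 4.58) 1.06 kb downstream of the TSS. Dsg2, the desmoglein with the broadest tissue range, had H3K4me3 over 2215 bp (7.28) and H3K27Ac over 875 bp (5.17) at the promoter. Dsg3, which basal keratinocytes express, had H3K4me3 over 2376 bp (5.22) and H3K27Ac over 297 bp (3.8). None of the 3 had MOF within 20 kb, and the nearest MOF peak was 112 kb from the TSS of Dsg1a, 135 kb from that of Dsg2 and 87.3 kb from that of Dsg3.

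Desmocollins pair with the desmogleins. Dsc2, the widespread form, had the tallest and narrowest H3K4me3 promoter peak of the 10 genes (fold enrichment 11.6, 799 bp), with H3K27Ac over 659 bp (6.02). Both began downstream of the TSS, at 37 and 49 bp. A narrow MOF peak (232 bp, score 651) lay inside them, 319 bp past the TSS, which is outside the promoter window. Dsc3, which basal keratinocytes express, had H3K4me3 over 3532 bp (3.9), the width ranked 27 among 14132 genes, H3K27Ac over 1110 bp (5.36) and a MOF peak of 642 bp (score 736) that ended 31 bp past the TSS. Neither this MOF peak nor that of Jup reached 2 kb, against 7.62% of genes with MOF at the promoter. At Dsc3 MOF thus lay mostly before the start, while H3K4me3 extended 3292 bp after it.

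Most of the desmosome genes had a H3K4me3 promoter peak that was wider and lower than the median of all genes, with Pkp2 and Dsc2 as narrow, taller exceptions and Dsg1a narrow. The median width of H3K4me3 at the promoter was 2326 bp over the 10 genes, against 1319 bp over all genes with such a peak, and the median fold enrichment was 4.89 against 8.04. A peak of 2 kb or wider was present at 7 of 10, against 12.8% of all genes with H3K4me3 at the promoter. The members just inside and outside this width were Dsg2 (2215 bp) and Pkp2 (1108 bp). The genes below it were Pkp2, Dsg1a and Dsc2. Of the 7 wide peaks, that of Dsg2 was near the median height of all genes (7.28-fold), and the other 6 ranged from 2.72-fold at Pkp1 to 5.22-fold at Dsg3.

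**Figure D2:**
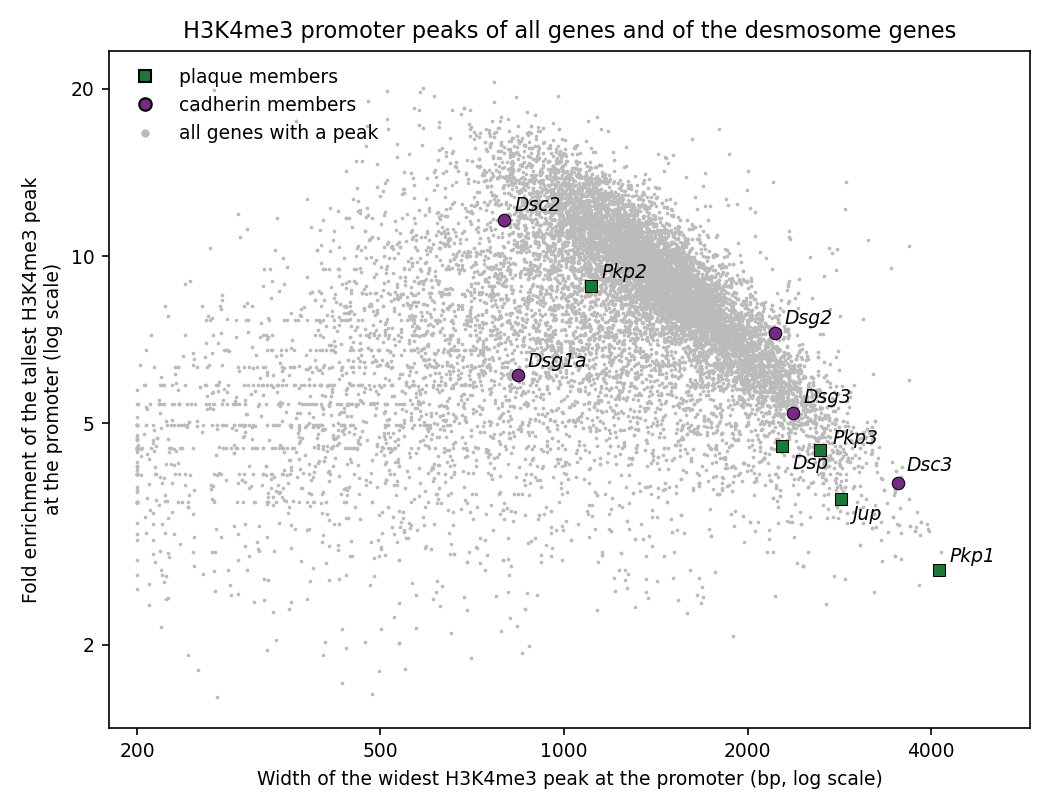
Fold enrichment (log scale) against width in bp (log scale) of the H3K4me3 peak at the promoter, with 1 grey point for each of the 14132 genes that have one. Green squares are the 5 plaque members and purple circles the 5 cadherin members. Jup, Pkp1, Pkp3 and Dsc3 lie at the wide, low end, Pkp1 at 4116 bp and 2.72-fold, whereas Pkp2, Dsg1a and Dsc2 lie among the narrower peaks.

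Other junction genes were intermediate. A H3K4me3 promoter peak of 2 kb or wider was present at 7 of the 14 adherens junction genes with the mark, 4 of 10 hemidesmosome and basement membrane genes (Itgb4, Itga3, Dst and Lama3; median width of the 10, 1952 bp) and 3 of 11 tight junction genes (median of the 11, 1350 bp). It was also present at 6 of 6 keratinocyte markers with the mark, whose medians were 2666 bp and 3.97-fold. Wide and low H3K4me3 peaks were thus not particular to the desmosome genes. Whether height falls with width over all genes was not tested. At the fibroblast and melanocyte markers with the mark the count was 0 of 3 each. These counts were not tested against each other, and the width of a called peak depends on depth, whose part was not tested.

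The width lay on the transcribed side. Within 5 kb downstream of the first TSS the 10 genes had a median of 2380 bp under H3K4me3, against 894 bp over all genes with H3K4me3 at the promoter. Upstream they had 208 bp against 476 bp. H3K4me3 covered more bases downstream than upstream at 10 of 10 desmosome genes, against 72.7% of those genes. Dsp and Dsc2 had 0 bp upstream, and Pkp2 had the smallest imbalance, with 421 bp upstream and 687 bp downstream. H3K27Ac lay more downstream at 9 of 10, the exception being Pkp2 with none within 5 kb, against 54.2%.

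Over the gene body H3K4me3 and H3K27Ac each had a peak in 10 of 10 desmosome genes, against 58.4% and 49.2% of all genes. This window begins at the TSS, so promoter peaks that run past the start counted again. Apart from promoter peaks, Pkp2, Pkp3, Dsg2, Dsg3, Dsc2 and Dsc3 had no H3K4me3 peak in the gene. Pkp3 and Dsg2 likewise had no further H3K27Ac peak there. MOF had a peak in the gene body of 5 of 10 (Dsp, Jup, Pkp1, Dsc2 and Dsc3), against 34.7%, and Rfx2 in 0, against 0.833%. Dsc3 counted only through its promoter MOF peak, which reaches 32 bp into the gene. With the peak centre required to lie in the gene body, MOF counted at 4, against 27.5%. The transcribed regions of the 10 genes had a median length of 36.8 kb, against a median of 13.5 kb over all genes. Each of these windows except that of Pkp3 (12.3 kb) was longer than the median of all genes. Within 20 kb the counts stayed at 10, 10, 5 and 0, against 72.1%, 65.7%, 58.3% and 2.88% of all genes. The MOF count of 5 is near that background. The nearest Rfx2 peak to any member was 196 kb from the TSS of Pkp3.

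**Figure D3:**
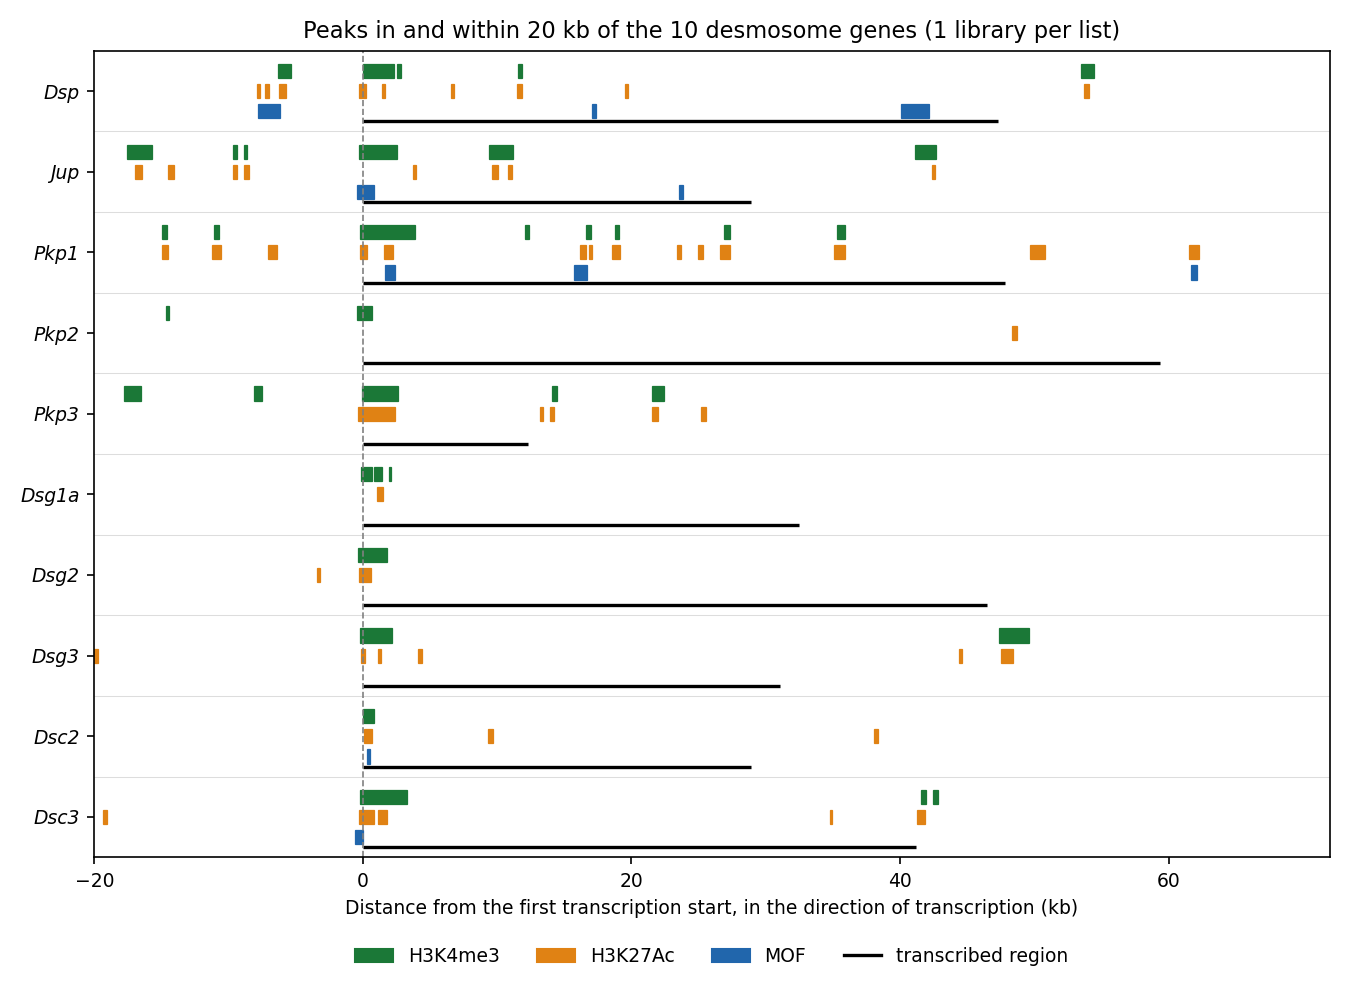
Peaks in and within 20 kb of each desmosome gene, by distance in kb from its first transcription start along the direction of transcription, with the transcribed region as a black line. Pkp1 has 14 H3K27Ac peaks and Pkp2 and Dsg1a have 1 each, and MOF peaks appear at Dsp, Jup, Pkp1, Dsc2 and Dsc3.

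Outside all annotated promoters, 42 H3K27Ac peaks lay in or within 20 kb of the desmosome genes. Their median fold enrichment was 3.43, against 4.45 for the 19935 H3K27Ac peaks outside promoters genome-wide. H3K4me3 overlapped 21 of the 42, against 37.7%. These include peaks under the gene's own wide promoter H3K4me3 peak, centred 1.52 kb past the TSS at Dsp, 1.93 kb at Pkp1, 1.23 kb at Dsg3 and 1.46 kb at Dsc3. MOF overlapped 6 of the 42, against 12%. Those 6 were 3 upstream of Dsp and 3 at Pkp1. Of the 10 MOF peaks near the desmosome genes, 5 overlapped both marks, 1 H3K4me3 alone, 1 H3K27Ac alone and 3 neither, and the share of all MOF peaks with neither mark was 54.5%. The 3 without marks were the peaks inside Dsp and the exonic peak of Jup.

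Neighbouring genes limit some of these assignments. The H3K4me3 and H3K27Ac peaks beyond the end of Dsp, 13.5-fold and 12.2-fold, overlap the promoter of Snrnp48. Those at the far end of Pkp3 include a H3K4me3 peak at the promoter of Sigirr, and the H3K4me3 and H3K27Ac peaks centred 16.6 and 16.7 kb before Jup overlap the promoters of Fkbp10 and P3h4. The promoter peaks of Dsg2 also lie within 20 kb of Dsg3 and counted there too.

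The 5 cadherin members lie in 1 cluster with Dsc1, Dsg1c, Dsg1b and Dsg4, and are therefore not independent of each other. Over 684 kb, flanks of 20 kb included, the cluster held 14 H3K4me3, 29 H3K27Ac and 6 MOF peaks and no Rfx2 peak. Per Mb this was 20.5 for H3K4me3, 42.4 for H3K27Ac and 8.78 for MOF, against 8.64, 10.1 and 6.1 over the whole chromosome. H3K27Ac peaks were thus the densest kind in the cluster relative to the chromosome.

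**Figure D4:**
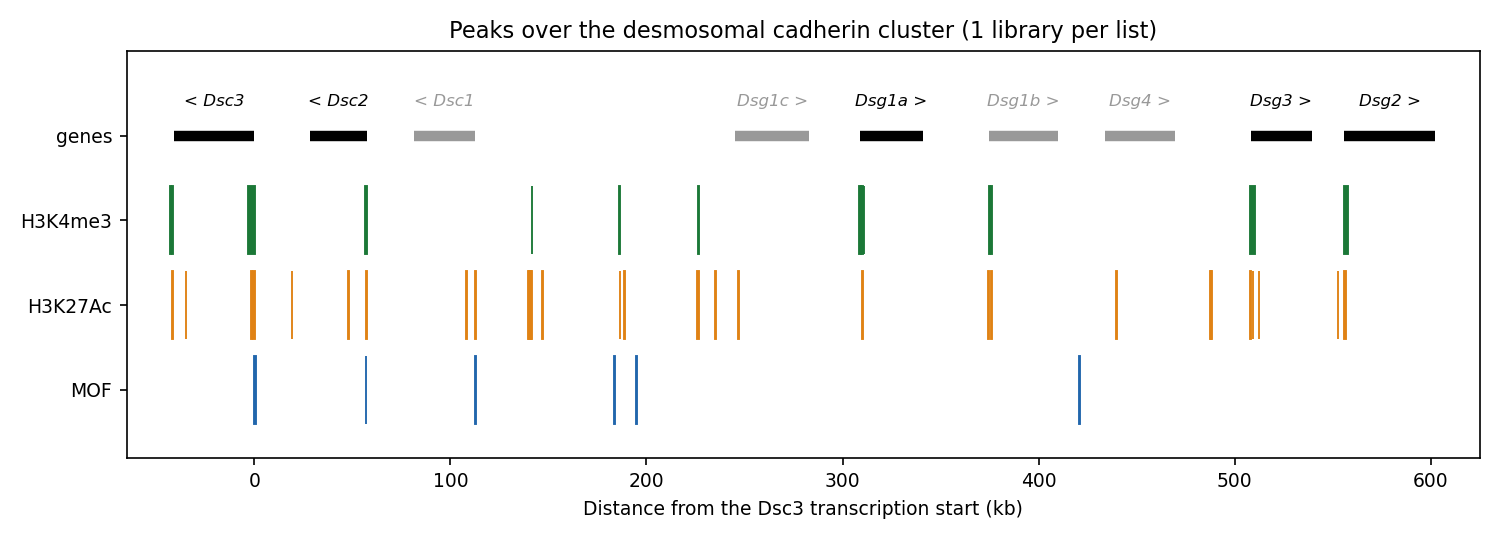
Peaks over the desmosomal cadherin cluster, by distance in kb from the Dsc3 transcription start. Member genes are black, other cadherins grey, with an arrowhead for the direction of transcription, and narrow peaks are drawn no thinner than their outline. The cluster holds 14 H3K4me3, 29 H3K27Ac and 6 MOF peaks, and H3K27Ac and MOF but no H3K4me3 lie at the start of Dsc1.

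Within the cluster, neighbours of the same family differed. Dsc1, the desmocollin of the upper epidermis, had H3K27Ac (546 bp, fold enrichment 4.84) and MOF (294 bp, score 736) over its TSS without H3K4me3, and over all lists and windows 5 genes in all had its profile. Dsg1c and Dsg4 had no promoter peak of any list. Dsg1b had H3K4me3 over 726 bp (6.14) and H3K27Ac over 280 bp (3.28), close in H3K4me3 to Dsg1a. Dsg1a, Dsg1b and Dsg1c are close copies, and 43.5%, 42% and 10.9% of the 31-base words of their promoters occurred more than once in the genome. Reads there could be dropped or split between copies, so the 3 H3K4me3 peaks and the lack of promoter H3K27Ac at Dsg1a are uncertain. The reads of these marks were paired-end and longer than these words. How many reads were affected is therefore not known from the share of repeated words. At the other members that share was at most 1.4%.

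Of 9 other desmosome genes, 5 had H3K4me3 at the promoter (Dsg1b, Pkp4, Perp, Ppl and Evpl; 55.6%, interval 21.2 to 86.3%), near the 54% of all genes. H3K27Ac was at 6 (those 5 and Dsc1), against 44.1%, and MOF at 3 (Dsc1, Pkp4 and Evpl), against 23.7%, and both intervals hold the share of all genes. The H3K4me3 promoter peak was 2 kb or wider at 2 of the 5 (Perp and Ppl), with a median of 1654 bp. Perp, a tetraspan protein that desmosomes need, had H3K4me3 over 2784 bp (fold enrichment 3.96), and periplakin (Ppl) over 2099 bp (4.98). Envoplakin (Evpl), the partner of periplakin, had a narrower peak of 1654 bp (9.12) with MOF across the start, and that of Pkp4, a plakophilin relative, was 1306 bp wide (6.75). Corneodesmosin (Cdsn), which the uppermost layers secrete, had no peak of any list at the promoter.

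**Figure D5:**
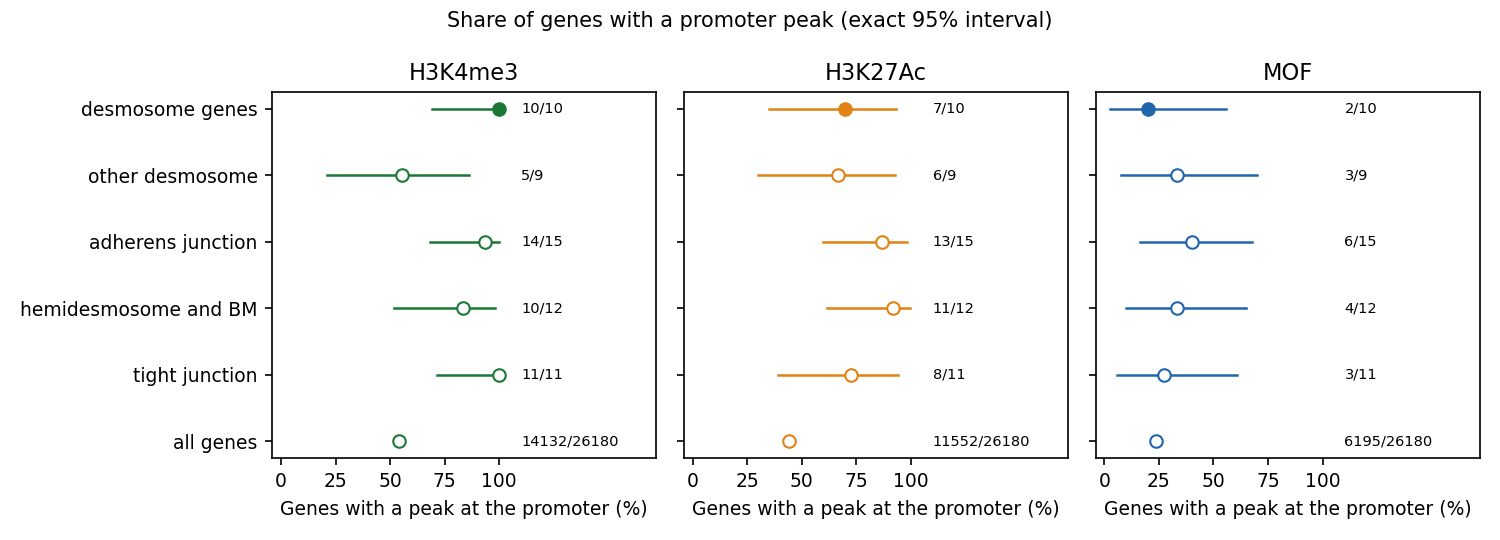
Percent of genes with a promoter peak of H3K4me3, H3K27Ac or MOF in the 10 desmosome genes (filled), in 4 comparison lists and in all 26180 genes (open), with exact 95% intervals and counts; BM is basement membrane. H3K4me3 is at 10 of 10 desmosome genes and 54% of all genes, and the MOF intervals of all lists hold the 23.7% of all genes.

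Among the other junctions, H3K4me3 was at the promoter of 14 of 15 adherens junction genes, 10 of 12 hemidesmosome and basement membrane genes and 11 of 11 tight junction genes. H3K27Ac was at 13, 11 and 8, and MOF at 6, 4 and 3. The 3 tight junction genes with MOF were Tjp1, F11r and Cgn. Rfx2 was at 0 promoters of these lists. The intervals overlapped for each mark, so the 10 desmosome genes could not be told apart from the other junction genes by these counts.

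Presence or absence in the 12 combinations of 4 lists and 3 windows placed Dsp, Pkp1 and Dsc2 together, with H3K4me3 and H3K27Ac everywhere and MOF beyond the promoter. Of the comparison genes, Ppl and the classical cadherins Cdh1 and Cdh3 were among those that shared it, as did 1351 genes in all. Pkp3, Dsg2 and Dsg3 had both marks and no MOF, a profile of 2071 genes. Pkp2 and Dsg1a lacked promoter H3K27Ac and MOF, with 178 genes in all. Jup shared its profile with Cgn among the comparison genes and with 127 genes in all. Dsc3 had all but Rfx2, the commonest of these profiles with 4768 genes.

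The choice of genes did not use the base composition of the promoters. The ratio of observed to expected CpG over the promoter window had a median of 0.427 in the plaque genes (0.324 to 0.614) and 0.192 in the cadherins (0.0807 to 0.456). The ranges overlapped, with Dsg2 (0.456) above Jup, Pkp1 and Pkp3, and the difference was not tested. In this window the lowest value was at Dsg1a, followed by Dsg3 at 0.147, and the highest at Pkp2. Over 500 bp centred on the TSS the order changed, with Dsg3 lowest (0.0348) and Dsp highest (0.788). A promoter was called CpG-rich at a ratio of 0.6 or more with a GC content of 50% or more, which Pkp2 alone met, against 22.2% of all genes and 38.7% of those with H3K4me3 at the promoter. In the 500 bp centred on the TSS, Dsp, Jup, Pkp1, Pkp2 and Dsg2 met it, 5 of 10 against 45.7% of all genes, so this call depended on the window. Among genes with H3K4me3 at the promoter the median ratio was 0.639 where MOF was present and 0.553 where it was not, and the members with MOF had 0.427 (Jup) and 0.398 (Dsc3).

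Short motifs were searched on both strands of the 300 bases from 250 before to 50 after the first TSS. GCCNNNGGC, the letters of AP-2, was found at Dsp, Pkp2 and Pkp3, 3 of 10 against 18.5% of all promoters. The TATA box (TATAAA) was found at 0 of 10, against 13.1%, and so was TGANTCA, against 7.27%. AACNNGTT, the letters of Grainyhead-like factors, was at 0 of 10 (3.8%), as were the p63 site (1.38%) and the X-box (1.52%). Within 150 bases of the summits of the 42 H3K27Ac peaks outside promoters, TGANTCA was found at 4, against 17% of such peaks genome-wide, GCCNNNGGC at 7, against 14.5%, and the p63 site at 2, against 5.5%. AACNNGTT was found at 3 of them (5.91%), the TATA box at 3 (8.27%) and the X-box at 0 (0.507%). The counts at these peaks were near or below their backgrounds, and a match is not evidence of binding.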

How the data were processed

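The authors aligned reads to mm10 with Bowtie2 and called peaks library by library with MACS2: MOF reads were single-end and called without a fragment model, and Cut&Run peaks were called on whole fragments. A control library was not given in the sources used here. The deposited Rfx2, H3K4me3 and H3K27Ac lists hold a score, the fold enrichment at the summit (a ratio over local background), the −log10 p-value and the −log10 q-value. The lowest −log10 q-value was 1.32 for H3K27Ac and 1.35 for H3K4me3. The deposited MOF list holds regions with a score only, has more peaks than the authors state for MOF, and may not be their final call. The H3K4me3 list is attached to the repeat library, but its name lacks the repeat mark, which leaves its library uncertain. The other H3K4me3 and H3K27Ac libraries, H4K16Ac and H3K4me1 were not used here.

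Peaks were placed on curated RefSeq transcripts of GRCm38.p6, the assembly named mm10 in genome browsers, with Python 3.11.15, numpy 2.4.6, pandas 2.3.3 and scipy 1.17.1. Overlap counts were tested on simulated data against bedtools 2.31.1. Percentiles are over genes with a promoter peak of the same list. Intervals are exact (Clopper-Pearson). Sequences were read from the RefSeq genome, and the RefSeq promoter table, which of the 10 genes held Jup and Dsp, matched it at both. The p63 site was searched as a pair of half-sites with up to 3 mismatches. The 10 genes, the gene lists and the tests were chosen with earlier results of these data known. Named are the 10 genes, 9 other desmosome genes, and, of 3 lists of other junction genes and 6 of cell type markers, those behind a count of 5 or fewer or with a member's profile, except 2 counts whose genes are not reported here. The wide-peak threshold of 2 kb was set after the peaks were seen. Alternatives were other promoter windows, distances, overlap rules, peak thresholds and transcripts.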

Additional observations from a re-analysis of the deposited data

How the results depend on the processing

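No paired analysis was possible because a single list stood for each antibody. The counts of genes with a peak in the gene body or within 20 kb stayed within 1.5 times under each alternative run, as did the Rfx2 counts of 0. The promoter counts depended on the overlap rule. When the centre of the peak had to lie in the promoter, H3K4me3 fell to 1 of 10 genes (Pkp3, by its second TSS; 25.5% of all genes), H3K27Ac to 4 (26.2%) and MOF to 1 (Dsc3; 14.7%), since most of these peaks run past the start. With a promoter of 2.5 kb either side, MOF rose to 4 (27.8%), with Pkp1 and Dsc2 added. Keeping the 50% of H3K27Ac peaks with the highest −log10 q-value left 4 promoters (36.7%). CpG-rich promoters rose to 5 (45.7%) in a window of 500 bp. Alternatives chosen after seeing the data gave 2 genes with H3K4me3 of 3 kb or wider (Pkp1 and Dsc3; 0.8%), 7 at 1.5 kb (37.1%) and 8 when peaks up to 500 bp apart were joined (19.9%), the added gene being Dsg1a. A peak below the authors' threshold, or a shallow library, would leave a gene without a peak, and the lists alone cannot tell these apart.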
